A study of Homo sapiens with 9 samples.

Results

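The integrin subunits described here are 10 genes of the integrin family, taken by gene name from the deposited gene lists: the alpha subunits ITGA2, ITGA3, ITGA5, ITGA6, ITGA10 and ITGAV and the beta subunits ITGB1, ITGB3, ITGB4 and ITGB5. They are 10 of 27615 genes in the longest list, and 9 of them were among the 11711 genes tested. Polyadenylated RNA was sequenced from MDA-MB-231 cells, an established human triple-negative breast cancer line, exposed to the solvent DMSO alone (vehicle), to rimonabant or to TXX-1-10. Each group has 3 libraries. Rimonabant blocks the cannabinoid receptor CB1. TXX-1-10 was derived from rimonabant and selected in a screen for inhibitors of the expression of HPIP, an oncoprotein encoded by PBXIP1. All 3 groups are the same unmodified line, the controls received the solvent, and the dose and duration for the sequenced cells are not given in the sources used here, so it is not known whether both compounds were used at the same dose. The labels number the libraries 1 to 3 within a treatment without saying that they came from separate cultures, so each p-value measures the spread between these libraries, which may be technical.

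Integrins are receptors made of 1 alpha and 1 beta subunit that span the plasma membrane and hold cells to the extracellular matrix. The pairing sets the ligand. With ITGB1, the ITGA2 and ITGA10 subunits form collagen receptors, ITGA3 and ITGA6 form laminin receptors, and ITGA5 forms the classical fibronectin receptor. ITGAV pairs with ITGB1, ITGB3 or ITGB5 to bind vitronectin, fibronectin and other proteins with an RGD motif, and ITGA6 with ITGB4 forms the laminin receptor of hemidesmosomes, the junctions that tie epithelial cells to the basement membrane. Alpha and beta chains meet in the endoplasmic reticulum, and unpaired chains are generally not carried to the surface. Inside the cell, talin and kindlin bind the beta tail and turn the receptor on, and vinculin, alpha-actinin, filamin and focal adhesion kinase join it to actin and to signalling. In breast cancer, integrins have been studied for their part in adhesion, migration and metastasis.

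Library totals, computed back from the deposited FPKM values, ran from 17078370 to 19277808. The deposited lists appear to be cut at different points from 1 shared gene order. The genes listed in all 9 libraries number 4237, the length of the shortest list, that of rimonabant replicate 1. Those listed in the 8 other libraries number 9397, the length of the list of vehicle replicate 2. A gene is thus missing where a list ended before it, whatever its reads in that library, and a missing line is not a count of 0. Markers of the line were present in all 9 libraries, with vimentin (VIM) at 224 to 329 FPKM and AXL at 124 to 221 FPKM, and CDH1 was at 0 in the 4 libraries that listed it. The other genes checked as low in this line did not all fall near 0: ESR1 and PGR were at most 0.0314 and 0.0459 FPKM in 4 libraries each, but EPCAM was at 4.47 to 5.37 FPKM in 7 libraries and ERBB2 reached 9.52 FPKM and was in all 9. Defining markers of other cell types were near 0 where listed: the highest FPKM was 0.0639 for PTPRC of leukocytes, 0.172 for PECAM1 and 0.0193 for CDH5 of endothelium, and 0.533 for PDGFRB of fibroblasts and pericytes, and CD3E was in none of the lists as used. In rimonabant replicate 1 and TXX-1-10 replicate 3, longer genes had fewer counts than in the same group's other libraries (Spearman's rho of the deviation with length -0.694 and -0.692 across 4236 genes, which are not independent replicates), and the members have gene lengths of 4394 to 9802 bases in the deposited lists. Calls of the members and named genes that these libraries decide, and counts that move by over 1.5 times without them, are given both ways below, and the cause of their trend was not tested. The values are mRNA levels of whole cultures, in which fewer expressing cells and less RNA per cell cannot be told apart, and protein was not measured in these data.

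Of the members, 3 whose mRNA moved under TXX-1-10 are shown with the bases just upstream of a RefSeq transcription start, because ITGA6 and ITGB1 were lower and ITGA2 was higher in the same libraries. The sequences are from RefSeq (GRCh38.p14), which has a promoter entry for 7 of the 10 members, and run 5′ to 3′ on the strand of the gene. Each begins 250 bases before that start and ends at it (ITGA6) or, where an annotated exon begins earlier, 26 bases (ITGA2) or 2 bases (ITGB1) short of it. The gene model of ITGB1 in the deposited lists reaches further upstream, to base 33005792 of chromosome 10, so the start of that model lies outside this window. Capitals mark matches, on either strand, to the GC box GGGCGG bound by Sp1-type factors, the TATA box TATAAA, the TEAD site GGAATG, the AP-1 site TGANTCA or the CCAAT box CCAAT, and no capitals overlap. ITGA2 lies on the plus strand (chr5:52989102-52989325), ITGA6 on the plus strand (chr2:172427086-172427335) and ITGB1 on the minus strand (chr10:32958233-32958480).
ITGA2: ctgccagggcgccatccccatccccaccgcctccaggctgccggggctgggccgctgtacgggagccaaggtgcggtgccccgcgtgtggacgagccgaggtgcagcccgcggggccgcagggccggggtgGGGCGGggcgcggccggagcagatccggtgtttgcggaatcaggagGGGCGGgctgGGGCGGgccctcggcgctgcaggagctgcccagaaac
ITGA6: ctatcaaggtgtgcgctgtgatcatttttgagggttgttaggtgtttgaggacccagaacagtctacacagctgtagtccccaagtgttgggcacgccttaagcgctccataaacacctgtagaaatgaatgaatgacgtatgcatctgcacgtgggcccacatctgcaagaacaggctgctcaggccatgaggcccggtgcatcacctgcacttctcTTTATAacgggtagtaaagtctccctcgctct
ITGB1: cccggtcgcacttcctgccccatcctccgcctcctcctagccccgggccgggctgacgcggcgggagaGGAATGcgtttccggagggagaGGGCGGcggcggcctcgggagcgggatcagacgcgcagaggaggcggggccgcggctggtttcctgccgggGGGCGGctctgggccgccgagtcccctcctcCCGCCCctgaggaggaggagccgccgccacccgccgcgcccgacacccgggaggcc
The ITGA2 and ITGB1 windows each held 3 GC boxes and were rich in G and C, at 77.2% and 78.2%. The ITGA6 window held no GC box and had a G and C content of 50.8%. It held a TATA box match near its 3′ end, on the strand opposite to the gene. The ITGB1 window also held 1 TEAD match. Of 35116 RefSeq promoter windows of 250 bases, 42.6% held a GC box, 10.7% a TATA box, 11.9% a TEAD site, 6.57% an AP-1 site and 32.0% a CCAAT box. A match is a description of the letters and does not show that a factor binds.

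In vehicle-treated cells the beta subunit ITGB1, the common partner of most alpha chains, was by far the most abundant member per length. Its mean of 354 FPKM (the authors' value, a count scaled to gene length and library total) ranked 70 among the 9369 genes tested in the 8-library fit. ITGA3 followed at 95.6 ± 5.07 FPKM (SD, n = 3) and ITGA5 at 35.0 ± 0.561 FPKM. ITGB5 (25.3 ± 0.509), ITGA6 (22.7 ± 0.639), ITGA2 (20.0 ± 0.477) and ITGAV (19.3 ± 0.381 FPKM) came next. The vehicle libraries of ITGB5 and ITGA6 did not overlap, nor did those of ITGA6 and ITGA2, while ITGA2 (19.5 to 20.4 FPKM) and ITGAV (18.9 to 19.6 FPKM) did. ITGA10 (3.91 to 3.97 FPKM) and ITGB4 (3.45 to 4.23 FPKM) overlapped too, at ranks 7748 and 7887. ITGB3, the partner of ITGAV in the vitronectin receptor of platelets and osteoclasts, was close to the floor of the lists. It had 20 and 24 reads in the 2 vehicle libraries that listed it, 8 reads in 1 rimonabant library, and 8 and 15 reads in 2 TXX-1-10 libraries, and it was not tested. In the annotation its exons also share 2266 bases with AC068234.1 on the same strand, so its reads are uncertain.

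**Figure D1:**
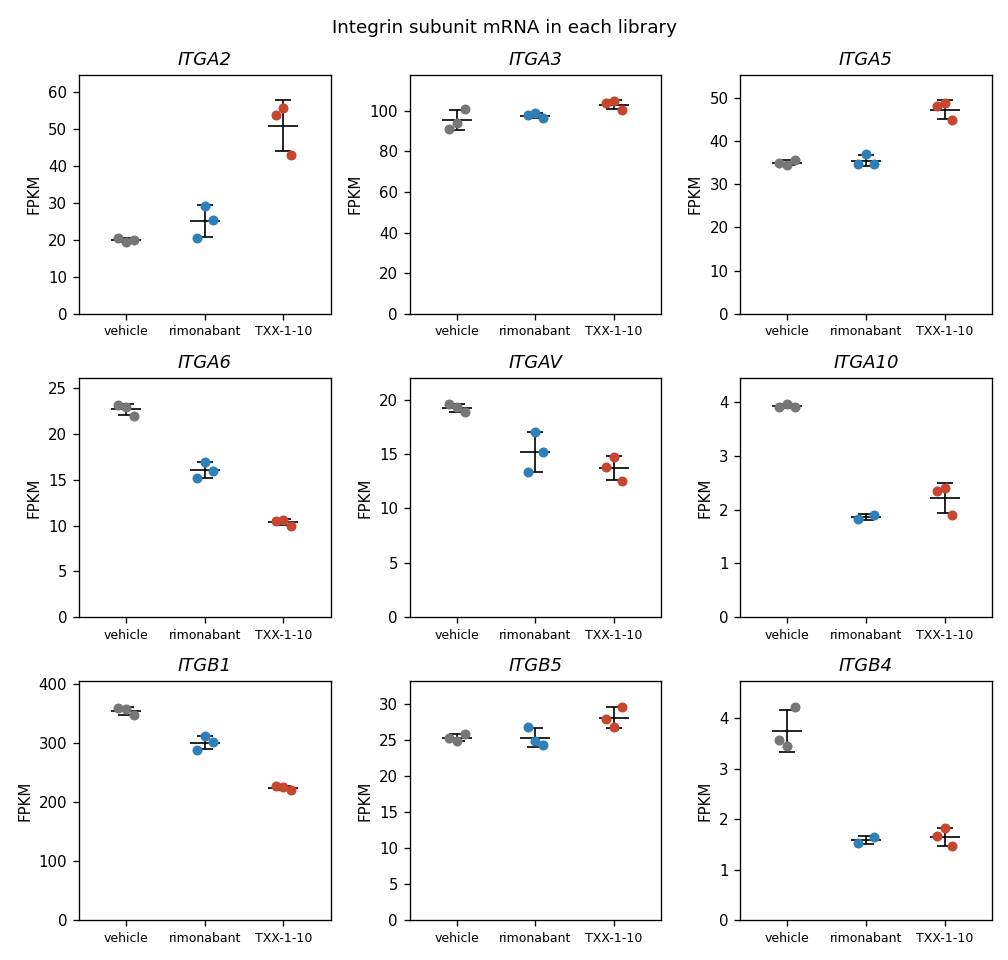
FPKM of the 9 tested integrin subunits in each library (points), with the mean (horizontal line) and SD (bars) of each treatment, on linear axes from 0. ITGA2 and ITGA5 sit highest under TXX-1-10, ITGA6 and ITGB1 step down from vehicle to rimonabant to TXX-1-10, and ITGB4 and ITGA10 are lower under both compounds. Rimonabant has 2 points for ITGA10 and ITGB4.

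TXX-1-10 was compared with vehicle to ask how the compound altered the integrin makeup of the cells. ITGA2 was higher, at 255% of the vehicle level, and ITGA6 and ITGB4 were lower, so that 1 of the 9 tested members changed upward and 2 changed downward by at least 1 on the log2 scale with an adjusted p under 0.05 (edgeR's quasi-likelihood test, Benjamini-Hochberg adjustment over all genes of the fit). Of all 11711 genes, 6.71% were higher and 7.75% lower by the same rule. At an adjusted p under 0.05 and any fold, 3 members were higher (ITGA2, ITGA5 and ITGB5), 5 were lower (ITGA6, ITGA10, ITGAV, ITGB1 and ITGB4) and ITGA3 did not pass, beside 33.8% of all genes higher and 36.8% lower. The median log2 fold change of the members was -0.49, against -0.02 over all genes tested. The study displayed cell adhesion genes that it chose by their change in these libraries, so the direction of any member in that display is not independent evidence. It also measured cell adhesion genes by qRT-PCR in MDA-MB-231 and ZR75-1 cells, and its text does not name them.

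Among the collagen receptors the alpha chains went opposite ways. ITGA2 stood at 20.4, 19.5 and 20.0 FPKM under vehicle and at 53.8, 55.8 and 43.0 FPKM under TXX-1-10. Every TXX-1-10 library was above every vehicle library, with a log2 fold change of 1.35 ± 0.13 (SE; 95% interval 1.06 to 1.63, adjusted p = 4.95e-06). The lowest of the TXX-1-10 values came from replicate 3, and without that library and rimonabant replicate 1 the log2 fold change was 1.46. ITGA10, an alpha chain best known from cartilage, stood at 3.91, 3.97 and 3.91 FPKM under vehicle and at 2.34, 2.40 and 1.90 FPKM under TXX-1-10. It fell by 0.83 on the log2 scale (SE 0.09, adjusted p = 4.48e-06), from 422 to 433 reads a library to 221 to 285 reads.

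The laminin receptor chains also parted. ITGA6 fell from 23.2, 23.0 and 22.0 FPKM to 10.5, 10.6 and 9.99 FPKM, with no overlap and a log2 fold change of -1.13 ± 0.05 (95% interval -1.25 to -1.01, adjusted p = 2.85e-08), the smallest adjusted p of any member in this comparison. Its hemidesmosome partner ITGB4 stood at 3.56, 3.45 and 4.23 FPKM under vehicle and at 1.67, 1.83 and 1.47 FPKM under TXX-1-10, again without overlap (log2 fold change -1.18 ± 0.11, adjusted p = 6.78e-07). ITGA3, which binds the same family of laminins with ITGB1, had 91.3, 94.3 and 101 FPKM under vehicle and 104, 105 and 101 FPKM under TXX-1-10. The ITGA3 groups overlapped, and its log2 fold change of 0.11 (95% interval -0.01 to 0.23) did not pass (adjusted p = 0.0866). It did pass at 0.13 (adjusted p = 0.00597) without the 2 libraries with a length trend and at 0.15 (adjusted p = 0.0336) without vehicle replicate 3. It also passed at 0.18 (adjusted p = 0.00648) under the length correction and at 0.21 under TMM scaling. In this comparison these 2 settings shifted the genes of the 9-library fit by a median of 0.09 and 0.10. Of 21 alternatives, 6 passed.

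ITGA5, the fibronectin receptor chain, stood at 34.9, 34.4 and 35.6 FPKM under vehicle and 48.1, 49.0 and 44.9 FPKM under TXX-1-10, and rose by 0.44 ± 0.05 on the log2 scale (adjusted p = 2.1e-05). ITGAV moved the other way, from 19.6, 19.4 and 18.9 FPKM to 13.8, 14.7 and 12.5 FPKM (log2 fold change -0.49 ± 0.09, adjusted p = 0.000475). Neither gene's groups overlapped. ITGB5, a vitronectin receptor chain, was 25.2, 24.9 and 25.9 FPKM under vehicle and 27.9, 26.8 and 29.6 FPKM under TXX-1-10. Its log2 fold change of 0.15 ± 0.05 had an adjusted p of 0.0282, which rose to 0.0596 to 0.0912 when vehicle replicate 1 or 2 or TXX-1-10 replicate 1 or 3 was left out (fold change 0.11 to 0.16). ITGB1 stood at 359, 357 and 347 FPKM under vehicle and at 227, 224 and 220.3 FPKM under TXX-1-10. The fall by 0.66 on the log2 scale (SE 0.05; 95% interval -0.78 to -0.55, adjusted p = 1.14e-06) was smaller in fold than that of ITGA6 and was the largest of any member in FPKM.

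Rimonabant was compared with vehicle to see what the parent compound did. Of the 9 tested members 0 changed upward by the fold rule (no log2 fold change reached 1) and 2 changed downward, ITGB4 and ITGA10, beside 1.24% of all genes higher and 1.14% lower. At any fold, 0 members were higher and 5 were lower (ITGA6, ITGA10, ITGAV, ITGB1 and ITGB4), beside 22.1% of all genes higher and 19.8% lower, and 4 did not pass (edgeR). At an unadjusted p under 0.05 or with DESeq2, 1 member was higher, ITGA2. The median of the members was -0.24 and that of all genes 0.01.

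ITGB4 under rimonabant had 1.53 and 1.64 FPKM in the 2 libraries that listed it, below every vehicle library (log2 fold change -1.24 ± 0.12, adjusted p = 1.24e-05). ITGA10 had 1.83 and 1.90 FPKM, also below every vehicle library (log2 fold change -1.08 ± 0.11, adjusted p = 1.31e-05). Both values rest on rimonabant replicates 2 and 3 alone, with 194 to 222 reads for each gene. ITGA6 was 15.2, 16.9 and 16.0 FPKM, between the other 2 treatments and overlapping neither (log2 fold change from vehicle -0.50 ± 0.05, adjusted p = 4.95e-05). ITGB1 was 288, 311 and 301 FPKM, again between them (-0.24 ± 0.05, adjusted p = 0.00385), and ITGAV was 13.4, 17.1 and 15.2 FPKM (-0.34 ± 0.09, adjusted p = 0.00887).

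The members that TXX-1-10 raised, ITGA2, ITGA5 and ITGB5, did not pass under rimonabant, and neither did ITGA3. ITGA5 was 34.7, 37.0 and 34.8 FPKM (log2 fold change 0.02, 95% interval -0.09 to 0.13, adjusted p = 0.763), overlapping vehicle. ITGA3 (97.9, 98.7 and 96.4 FPKM; 0.03, 95% interval -0.09 to 0.15, adjusted p = 0.65) and ITGB5 (26.9, 24.8 and 24.4 FPKM; 0.00, 95% interval -0.12 to 0.12, adjusted p = 0.989) overlapped it too. ITGA2 was 20.5, 29.2 and 25.4 FPKM, all 3 above the highest vehicle library, but replicate 1, the library with the length trend, was above it by under 0.1 FPKM. Its log2 fold change of 0.33 (95% interval 0.04 to 0.61) had an adjusted p of 0.0568. Without rimonabant replicate 1 it was 0.45 (adjusted p = 0.0055), without TXX-1-10 replicate 3 the value stayed at 0.33 with an adjusted p of 0.019, and without rimonabant replicate 2 it was 0.20 (adjusted p = 0.195). With no library of the 2 groups left out, it passed under the length correction (0.34, adjusted p = 0.0161) and in the 2-group fit (0.33, adjusted p = 0.0292). Single libraries and the model both decide this call. Over all 21 alternatives the adjusted p ran from 3.26e-08 to 0.195, and 8 passed.

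**Figure D2:**
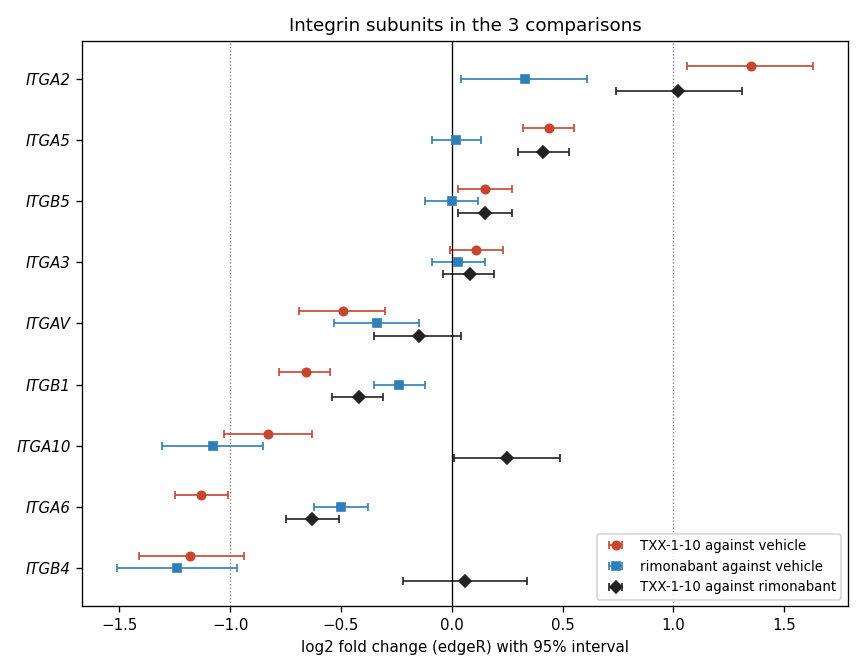
Log2 fold changes of the 9 tested integrin subunits in the 3 comparisons (edgeR), with 95% intervals as bars and dotted lines at the fold rule of 1 in either direction. Genes are ordered by TXX-1-10 against vehicle, from 1.35 for ITGA2 to -1.18 for ITGB4. The comparisons with vehicle share the vehicle libraries.

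Both compounds were compared directly because the 2 comparisons above share the vehicle libraries. Against rimonabant, 1 member was higher under TXX-1-10 by the fold rule (2.85% of all genes) and 0 were lower, as no log2 fold change reached -1 (4.49% of all genes). At any fold 3 members were higher, ITGA2, ITGA5 and ITGB5 (25.9% of all genes), 2 were lower, ITGA6 and ITGB1 (31.0% of all genes), and 4 did not pass. The median of the members was 0.08 and that of all genes -0.02.

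ITGA2 was higher under TXX-1-10 than under rimonabant by 1.02 ± 0.13 on the log2 scale (adjusted p = 5.81e-05). Its change was at the edge of the fold rule: the value was 0.90 without rimonabant replicate 1, 0.98 without TXX-1-10 replicate 1 and 0.95 without TXX-1-10 replicate 2, and the adjusted p was under 0.05 in every alternative. ITGA5 was higher by 0.41 ± 0.05 (adjusted p = 4.88e-05). ITGA6 was lower, with a log2 fold change of -0.63 ± 0.05 (adjusted p = 4.11e-06), and so was ITGB1 at -0.42 ± 0.05 (adjusted p = 5.31e-05). For these genes the direct test shows a difference between the compounds in every alternative run.

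ITGB4 gave no such difference, and ITGA10 was borderline. Between the compounds, the log2 fold change of ITGB4 was 0.06 (95% interval -0.22 to 0.34, adjusted p = 0.688) and that of ITGA10 was 0.25 (95% interval 0.01 to 0.49, adjusted p = 0.0679). ITGA10 passed at 0.35 (adjusted p = 0.00399) without TXX-1-10 replicate 3, whose 1.90 FPKM was level with the higher rimonabant library. It also passed under TMM scaling (0.30, adjusted p = 0.041) and the length correction (0.29, adjusted p = 0.0273), and in 4 of 18 alternatives in all. These 4 count the fit without TXX-1-10 replicate 3 again as the fit without both libraries with a length trend, since rimonabant replicate 1 does not list ITGA10. With all libraries ITGAV did not pass (-0.15, 95% interval -0.35 to 0.04, adjusted p = 0.15), but it did without rimonabant replicate 1 (-0.24, adjusted p = 0.0176) and without both libraries with a length trend (-0.18, adjusted p = 0.0052). ITGA3 gave 0.08 (95% interval -0.04 to 0.19, adjusted p = 0.225), and 0.16 (adjusted p = 0.021) under TMM scaling. ITGB5 gave 0.15 (adjusted p = 0.034), which rose to 0.0519 to 0.124 without any 1 of vehicle replicate 2, rimonabant replicates 2 or 3, or TXX-1-10 replicates 1 or 3. These intervals do not show that the compounds act alike on these genes, and whether their doses matched is not known.

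Since the alpha chains share ITGB1 as a partner, the makeup of the alpha mRNA pool was described within each library, over the 5 alpha members listed in all 9 libraries. The share of ITGA2 in their summed FPKM was 10.1% to 10.8% under vehicle, 11.3% to 14.7% under rimonabant and 20.4% to 23.8% under TXX-1-10. That of ITGA6 was 11.1% to 12.2%, 8.37% to 8.53% and 4.53% to 4.73%. ITGA2 thus had a smaller mean share than ITGA6 in vehicle-treated cells (10.4% and 11.8%) and a larger one in both treated groups. ITGA3 held the largest share in every library, with means of 49.6% ± 1.52, 51.6% ± 2.14 and 45.8% ± 1.66 (SD, n = 3). The mean share of ITGA5 was 18.2%, 18.7% and 21.0%, and that of ITGAV was 10.0%, 8.01% and 6.07%. With 3 libraries against 3, the smallest 2-sided p of an exact permutation test is 0.1, and all 5 shares gave 0.1 in all 3 comparisons except ITGA3 between rimonabant and vehicle (exact permutation p = 0.2). The 5 shares are parts of 1 sum, so they are not independent results, and a share can fall without its mRNA falling. The mean of ITGA3 was 95.6 FPKM under vehicle and 103 FPKM under TXX-1-10, although its share was smaller.

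Set against ITGB1, the summed FPKM of the 5 alpha members was 0.528, 0.534 and 0.570 times that of ITGB1 under vehicle. It was 0.630, 0.640 and 0.623 times under rimonabant and 1.01, 1.05 and 0.957 times under TXX-1-10. The 3 groups did not overlap, and the means were 0.544 ± 0.0227, 0.631 ± 0.00835 and 1.01 ± 0.0452 (SD, n = 3). This ratio was chosen after the values were seen, its exact permutation p is the smallest possible (0.1), and it compares mRNA per length, not chains at the surface. After removal of the length trend it was 0.989 to 1.01 under TXX-1-10 and 0.628 to 0.673 under rimonabant. Relative to the library total, the alpha sum was 189 to 198 FPKM under vehicle and 182 to 199 FPKM under rimonabant, which overlapped. It was 211 to 235 FPKM under TXX-1-10, while ITGB1 was lower than vehicle under both compounds. For the hemidesmosome receptor, the FPKM of ITGB4 was 0.150 to 0.192 times that of ITGA6 under vehicle, 0.0900 and 0.103 times in the 2 rimonabant libraries and 0.147 to 0.171 times under TXX-1-10. ITGB4 was thus lower relative to ITGA6 under rimonabant than in either other group, in every library that listed both.

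**Figure D3:**
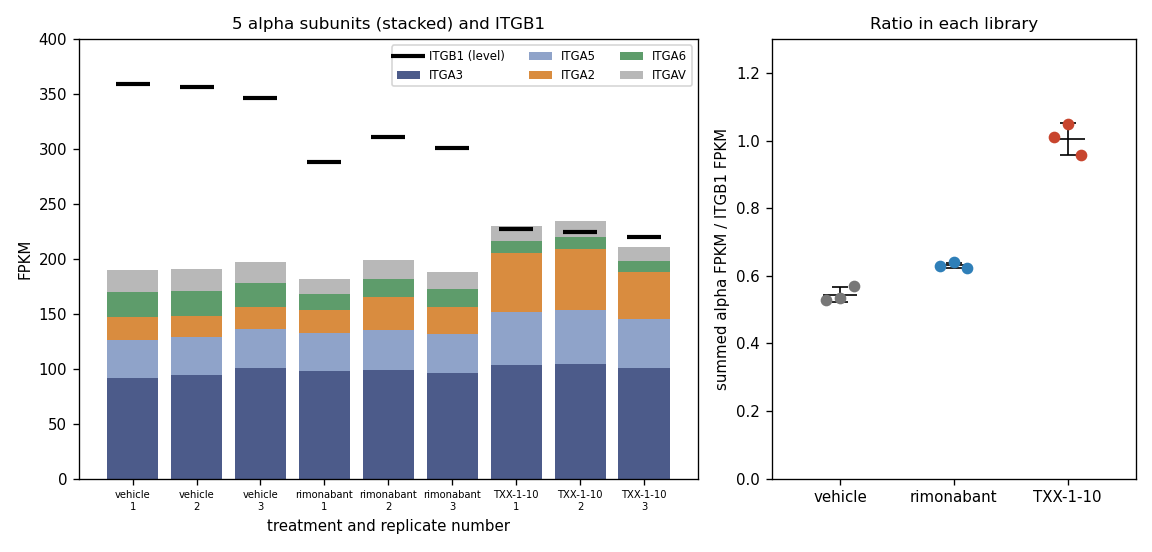
Left, FPKM of the 5 alpha subunits listed in all libraries, stacked per library, with the ITGB1 level as a black line. Right, the summed alpha FPKM divided by the ITGB1 FPKM, with points for libraries and lines and bars for the mean and SD (n = 3). The stack reaches 0.528 to 0.570 of the ITGB1 level under vehicle and 0.957 to 1.05 of it under TXX-1-10.

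A long noncoding gene that starts next to ITGB1 and is read in the other direction, ITGB1-DT, went opposite to ITGB1. It was named after its values were seen, because its exons overlap those of ITGB1 on the opposite strand by 42 bases and its start lies 615 bases from the RefSeq start of ITGB1. It had 85 and 76 reads in the 2 vehicle libraries that listed it, 233 and 206 in 2 rimonabant libraries, and 409, 344 and 375 in the TXX-1-10 libraries. The groups did not overlap, and the log2 fold change was 2.10 ± 0.13 for TXX-1-10 against vehicle (adjusted p = 7.96e-08), 1.32 ± 0.14 for rimonabant against vehicle (adjusted p = 7.35e-05) and 0.77 ± 0.11 between the compounds (adjusted p = 0.000133). Whether reads were counted by strand is not given in the sources used here, so reads from the shared bases cannot be told apart, and ITGB1 itself had 24376 to 36986 reads. Antisense genes with exon bases in common with ITGA5, ITGA6, ITGA10 and ITGAV had at most 38 reads in any library.

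Most other integrin subunits outside the 10 were scarce. Of 16 further subunit genes, 15 appeared in a list and 3 had enough reads to test. ITGB2, the leukocyte beta chain, rose from vehicle in both treatments (log2 fold change 0.23, adjusted p = 0.00776 under TXX-1-10; 0.41, adjusted p = 0.000891 under rimonabant). ITGA1, a further collagen receptor chain, fell under TXX-1-10 (-0.63, adjusted p = 5.81e-05) and gave -0.05 (adjusted p = 0.737) under rimonabant. ITGAE, the E-cadherin receptor chain, fell under TXX-1-10 (-0.50, adjusted p = 0.000399) and gave -0.23 (adjusted p = 0.0847) under rimonabant, which passed at the same value without the 2 libraries with a length trend (adjusted p = 0.00498). ITGB2 and ITGAE reached 8.33 and 6.06 FPKM, above ITGA10 and ITGB4. None of the 3 reached the fold rule. Of the others, ITGA7 had the most reads, at 38 to 72, and the rest had at most 16 reads in any library.

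The ligands that integrins bind were spread in both directions under TXX-1-10. Of 35 listed matrix and matricellular genes, 22 were tested: 3 changed upward and 9 downward against vehicle, 7 were higher and 13 lower at any fold, and their median was -0.69. The background for this and the lists that follow is the share of all genes higher and lower, which was 6.71% and 7.75% by the fold rule and 33.8% and 36.8% at any fold under TXX-1-10 against vehicle. It was 1.24% and 1.14%, and 22.1% and 19.8%, under rimonabant against vehicle, and 2.85% and 4.49%, and 25.9% and 31.0%, between the compounds. The largest falls by the naming rule were THBS1, an adhesive glycoprotein of the matrix (log2 fold change -3.39 ± 0.06), and CTGF (-2.87 ± 0.06), a matricellular protein. TNC, the matrix protein tenascin C, rose by 2.37 ± 0.11, and these 3 had adjusted p values from 3.35e-10 to 2.31e-09. Collagen chains were split, with COL6A2 at 1.15 beside COL4A1 at -1.22 and COL4A2 at -1.35, and the laminin chain LAMA3 was at -1.10, or at -0.91 and short of the fold rule without the 2 libraries with a length trend. FN1, the ligand of the ITGA5 receptor, was at -1.23 while ITGA5 itself was higher. Under rimonabant 0 ligand genes changed upward and 2 downward (THBS1 at -1.80 and FN1 at -1.03), 3 were higher and 13 lower at any fold, and the median was -0.42. Without the 2 libraries with a length trend FN1 no longer reached the fold rule, which left 1 changed gene, THBS1. Between the compounds 2 were higher and 3 lower by the fold rule, led by CTGF (-2.69 ± 0.06), CYR61 (-1.82 ± 0.07), a relative of CTGF, and TNC (1.60 ± 0.12), whose adjusted p ran from 1.82e-09 to 3.76e-07. At any fold 8 were higher and 10 lower, with a median of -0.14.

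More cytoplasmic adaptors were lower than higher against vehicle, by less than the ligands. Of 36 genes for talins, kindlins and other adhesion adaptors, 32 were tested: 1 changed upward and 2 downward under TXX-1-10 against vehicle, 8 were higher and 18 lower at any fold (33.8% and 36.8% of all genes), and the median was -0.28. The 2 were VCL, vinculin, which joins talin to actin (-1.44 ± 0.09), and ACTN4, an alpha-actinin (-1.36 ± 0.06), and the gene that changed upward was FERMT3, the kindlin of blood cells (1.32 ± 0.13), from a low level of 2.01 FPKM. Talin itself, TLN1, fell by 0.60 (adjusted p = 0.000282), focal adhesion kinase, PTK2, fell by 0.32 (adjusted p = 9.93e-05), and the kindlin FERMT2 rose by 0.18 (adjusted p = 0.0159). ILK, a scaffold at the beta tail, gave -0.41 (adjusted p = 0.101), also from a low level, 2.14 FPKM under vehicle and 1.61 FPKM under TXX-1-10. ILK and FERMT3 were read in the 7-library fit, without vehicle replicate 2 and rimonabant replicate 1. Under rimonabant 0 adaptors changed, none having moved by 1 or more, 3 were higher and 18 lower at any fold (22.1% and 19.8% of all genes), with a median of -0.35, and TLN1 (-0.62, adjusted p = 0.000672) and PTK2 (-0.36, adjusted p = 0.000164) fell by a similar amount, while FERMT2 gave 0.05 (adjusted p = 0.516) and ILK -0.39 (adjusted p = 0.215). Between the compounds 1 was higher (FERMT3, 1.20 ± 0.13) and 0 lower by the fold rule, 7 were higher and 7 lower at any fold (25.9% and 31.0% of all genes), with a median of 0.06, and TLN1 (0.01, adjusted p = 0.908), PTK2 (0.04, adjusted p = 0.501), FERMT2 (0.13, adjusted p = 0.0661) and ILK (-0.02, adjusted p = 0.932) did not pass. Without the 2 libraries with a length trend the count between the compounds was 12 higher and 7 lower of 29 adaptors tested, with FERMT2 past the threshold at 0.14 (adjusted p = 0.0254) and FERMT3 not in the fit.

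Among 17 hemidesmosome and membrane partners, 16 were tested, of which 2 changed upward and 2 downward under TXX-1-10 against vehicle, with 4 higher and 10 lower at any fold and a median of -0.26. SLC3A2, the CD98 heavy chain that binds beta tails, rose by 1.96 ± 0.07, from 43.2 to 168 FPKM. CAV1, caveolin of the membrane pits called caveolae, fell by 2.70 (SE 0.06), and SDC1, a syndecan that acts as a coreceptor at adhesions, fell by 1.16 (SE 0.06). CD63, a tetraspanin, was just past the rule at 1.01 and fell short of it at 0.91 without the 2 libraries with a length trend, which left 1 gene changed upward. PLEC, plectin, which ties ITGB4 to intermediate filaments, fell by 0.46 (adjusted p = 0.00462), and CD151, the tetraspanin of laminin-binding integrins, fell by 0.22 (adjusted p = 0.0437). Under rimonabant 0 changed upward and 1 downward (CAV1, -1.53 ± 0.05), 4 were higher and 4 lower at any fold, with a median of -0.10. Without the 2 libraries with a length trend 4 were higher and 10 lower, and in the 8-library fit 4 and 6. PLEC fell by 0.49 (adjusted p = 0.00602), and CD151 gave -0.16 (adjusted p = 0.147), or -0.26 (adjusted p = 5.87e-06) without the 2 libraries with a length trend. Between the compounds 1 was higher (SLC3A2, 1.05 ± 0.07) and 2 lower (CAV1, -1.17 ± 0.05, and SDC1, -1.01 ± 0.06), 3 were higher and 6 lower at any fold, the median was -0.09, and PLEC (0.03, adjusted p = 0.826) and CD151 (-0.05, adjusted p = 0.606) did not pass. SDC1 was at -0.94 in the 8-library fit and without the 2 libraries with a length trend, which left CAV1 as the 1 gene changed downward.

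Genes for integrin traffic moved least. Of 16, 13 were tested: 1 changed upward and 0 downward under TXX-1-10 against vehicle, 3 were higher and 4 lower at any fold, and the median was -0.01. The gene was DAB2, an endocytic adaptor for beta chains (1.06 ± 0.06, adjusted p = 7.83e-09). Neither rimonabant comparison had a traffic gene past the fold rule. Under rimonabant 0 changed, with 4 higher and 2 lower at any fold (4 and 4 without the 2 libraries with a length trend) and a median of 0.00, and between the compounds 0 changed, with 3 higher and 2 lower and a median of -0.06.

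**Figure D4:**
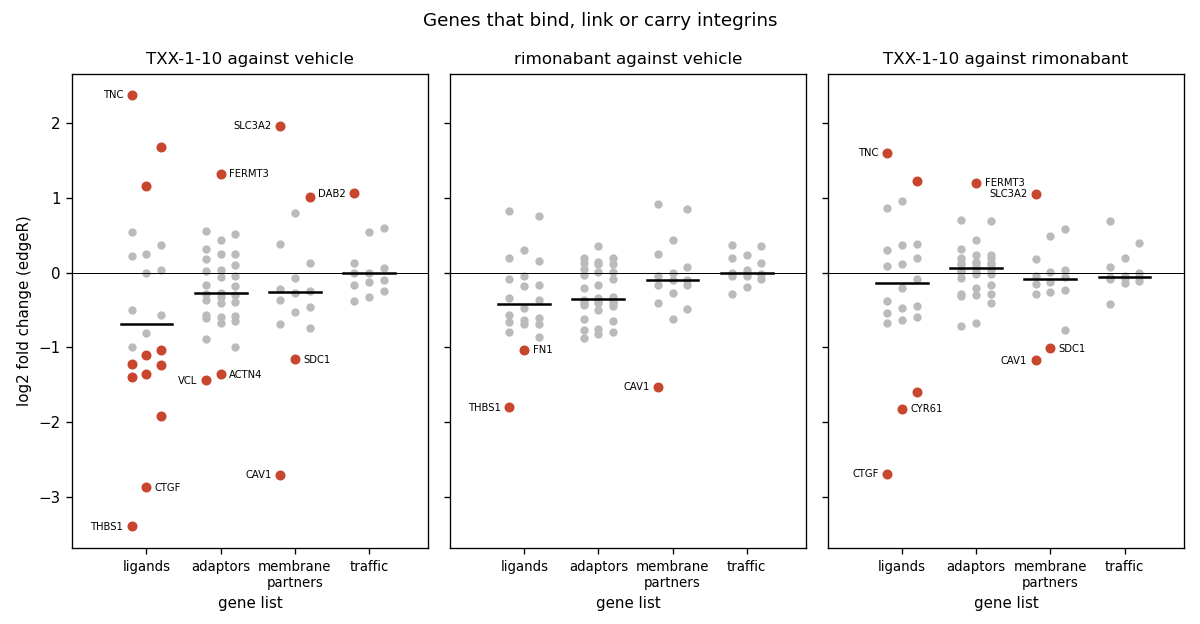
Log2 fold changes (edgeR) of every tested gene of the 4 lists in the 3 comparisons, with red points past both thresholds and black lines at the median of each list. Up to 3 genes per list and comparison are named. The ligand list spans -3.39 to 2.37 under TXX-1-10 against vehicle, and the traffic list has a single red point, DAB2 at 1.06.

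The genes whose levels followed each member most closely were found by Pearson's r of log2(FPKM + 1) over the 9 libraries, among 4235 other genes. ITGB1 was followed by TFRC, the transferrin receptor, and DDX46 (r = 0.999 for both), and ITGA6 by IPO5 and KIF5B (0.998 for both). ITGA2 was followed by ZC3H12C (0.999) and DOCK9 (0.997), and ITGA5 by TOB2 and MAP4K4 (0.992 for both). ITGAV was followed by DCBLD2 (0.990) and SPTBN1 (0.989), ITGB5 by REXO2 (0.970) and RPL13A (0.969), and ITGA3 by TTYH3 (0.915) and MAP1S (0.900). These are descriptions over libraries that share 3 treatments, a library total each and, in 2 cases, the length trend.

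The members lie on 7 chromosomes in the GRCh38 coordinates of the deposited lists. ITGA2 (ENSG00000164171) is at chr5:52989326-53094779, ITGA3 (ENSG00000005884) at chr17:50055968-50090481, ITGA5 (ENSG00000161638) at chr12:54395261-54419460 and ITGA6 (ENSG00000091409) at chr2:172427354-172506282. ITGA10 (ENSG00000143127) is at chr1:145891208-145910189, ITGAV (ENSG00000138448) at chr2:186590065-186680901, ITGB1 (ENSG00000150093) at chr10:32900319-33005792 and ITGB3 (ENSG00000259207) at chr17:47253846-47311816. ITGB4 (ENSG00000132470) is at chr17:75721328-75757818 and ITGB5 (ENSG00000082781) at chr3:124761948-124901418. The members on chromosome 17 did not share a direction, with ITGB4 lower under both compounds and ITGA3 past the threshold under neither, and the members on chromosome 2, ITGA6 and ITGAV, were both lower under both compounds.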

How the data were processed

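Polyadenylated RNA of 9 MDA-MB-231 libraries was analysed, 3 per treatment. The authors deposited a whole-number count per gene without normalization and an FPKM value made from that count, the gene length and a library total. The submitters' processing notes name HISAT2 2.0.5 and featureCounts 1.5.0-p3. The strand setting of the counting is not given in the sources used here. That total was computed back from the 3 numbers and served as library size. It is not the sum of the counts. The listed counts sum to 17492638 against a total of 17078370 in vehicle replicate 1. In TXX-1-10 replicate 2 they sum to 16836181 against 18394759. TMM scaling does not use this total. It shifted log2 fold changes of TXX-1-10 against vehicle by a median of 0.10 in the 9-library fit and 0.05 in the 8-library fit.

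Counts were tested with edgeR 4.0.16 in R 4.3.3 in a single model of the 3 treatments. Each gene was read in the fit with the most libraries listing it (9, 8, 7 or 6) among genes with a mean FPKM of at least 1, giving 4236, 5133, 1834 and 508 genes. A gene was called changed with a log2 fold change of 1 or more in either direction and an adjusted p under 0.05. The standard error is the log2 fold change divided by the square root of F, and is approximate. In simulated counts, 200 of 200 genes changed 3-fold were recovered for TXX-1-10 against vehicle, on 4236 genes. DESeq2 1.42.0 and limma 3.58.1 were alternatives, with TMM, other FPKM filters, a length correction (lowess, span 0.3), 2-group fits, a replicate block and each library left out. Leaving out both libraries with a length trend was chosen after seeing the data.

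All members are named. From each list, up to 3 changed genes of largest fold without overlap of replicates are named, and TLN1, FERMT2, ILK, PTK2, PLEC and CD151 in any case; CD63, COL6A2, LAMA3, COL4A1, COL4A2 and ITGB1-DT were named after their values were seen. Members and lists were chosen with earlier results of these data known. Some values of single list genes are not reported here. GENCODE 29 gave overlapping genes, with coordinates for 27612 of 27615 genes. Tables used pandas 2.3.3 and numpy 2.4.6 in Python 3.11.15, permutation tests scipy 1.17.1, and plots matplotlib 3.10.9. Counts carry sampling noise that falls with depth.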

Additional observations from a re-analysis of the deposited data

How the results depend on the processing

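For ITGA10 and ITGB4, leaving out both libraries with a length trend is the same fit as leaving out TXX-1-10 replicate 3, and it is counted under both names. Of 549 values of the members under 21 alternatives, 507 kept their direction and their side of an adjusted p of 0.05, whatever the fold. Of the rest, 11 lost the threshold, 23 gained it and 8 changed sign. All 8 were near 0: ITGB5 under rimonabant against vehicle was -0.04 in the 8-library fit and without both libraries with a length trend, and over single libraries left out the values ran from -0.04 to 0.03 for ITGB5, -0.000322 to 0.07 for ITGA3 and -0.01 to 0.04 for ITGA5, and from -0.01 to 0.14 for ITGB4 between the compounds. TXX-1-10 against vehicle kept 3 changed members, except 2 with a mean FPKM of at least 5, which leaves out ITGB4, and with limma on log2(FPKM + 1). Rimonabant against vehicle went from 2 changed members to 0 with a mean FPKM of at least 5, which leaves out ITGA10 and ITGB4, and with limma on log2(FPKM + 1), which understates low genes. TXX-1-10 against rimonabant went from 1 (ITGA2) to 0 in the 8-library fit and with limma on log2(FPKM + 1), and ran from 0 to 1 with single libraries left out, 0 without rimonabant replicate 1 or TXX-1-10 replicate 1 or 2. Changed ligand genes under rimonabant went from 2 to 1 in the 8-library fit and without both libraries with a length trend, and changed adaptors between the compounds from 1 to 0 in both, since these fits do not hold FERMT3. LAMA3 and CD63 under TXX-1-10 against vehicle without both libraries with a length trend, and SDC1 between the compounds in both fits, fell short of the fold rule. The fall of the ITGA6 share between rimonabant and TXX-1-10 was -3.68 percentage points after the length correction and -3.86 without it. The cause of the other moves was not tested.

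Whether replicate numbers pair the libraries could not be decided from correlations of same-numbered deviations, since 2 libraries carry a length trend that enters them. The mean correlation was -0.041 for TXX-1-10 with vehicle and 0.0108 for rimonabant with vehicle. The 3 correlations for TXX-1-10 with rimonabant were -0.789, 0.828 and -0.614. With the replicate block the changed members numbered 3, 2 and 1, as without it, and ITGB5 between the compounds had an adjusted p of 0.0523. Genes with few reads, ITGB3 among them, lie beyond the end of some lists. Where a list ends did not follow the library total. Rimonabant replicate 1 lists 4237 genes at a total of 17477838, and vehicle replicate 1 lists 27129 at a total of 17078370. In each list 1 last line was read as incomplete and was not used.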
